A study of Mus musculus with 6 samples.

Results

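The genes described here are 9 that mark the basal layer of stratified and mammary epithelium: the keratins Krt5, Krt14, Krt15 and Krt17, the transcription factor gene Trp63, and Col17a1, Itga6, Itgb4 and Lama3, which encode parts of the hemidesmosome and of the laminin beneath it. They were chosen by name, as the rows of the deposited gene tables that carry these symbols, 9 of 55487 rows in each table. The tables come from RNA sequencing of mammary tumours of MMTV-PyMT mice, in which the mouse mammary tumour virus promoter drives the polyoma middle T oncogene in mammary epithelium, so that the tumours arise mostly from luminal cells. The 3 libraries labelled with the liver X receptor (LXR) agonist DMHCA were set against 3 labelled vehicle, in a study of LXR activation and tumour progression. For both groups the labels give dosing by mouth in gel cups without a break from 6 weeks of age. The labels used here state no strain background, age at collection or vehicle make-up. Each group's titles share 1 code, and nothing says that its libraries came from separate mice. Every p-value here therefore rests on library-to-library spread alone, which may not be spread between mice. No 2 libraries were alike within counting noise: the mean chi-square per gene was 81.9 to 337.5 over the pairs, where counting noise alone gives 1.

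In the mammary gland, basal cells lie between the luminal cells and the basement membrane, and the mature ones are contractile myoepithelial cells. A type II keratin (Krt5) pairs with type I keratins (Krt14, Krt15, Krt17) to form their filaments, and p63, encoded by Trp63, is the transcription factor that maintains basal identity. Hemidesmosomes tie the filaments to the basement membrane: integrin alpha6 beta4 (Itga6, Itgb4) and collagen XVII (Col17a1) cross the membrane and bind a laminin whose alpha chain is encoded by Lama3. Luminal PyMT tumours hold few such cells, and Itga6 and Itgb4 are also made by luminal and tumour cells.

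The libraries held between 36577451 and 42595799 expected counts, and CPM below are counts per 1000000, scaled by TMM. A count of 3 corresponded to at most 0.082 CPM of the library total, below every member's value. Luminal genes dominated every library: the 18 luminal genes listed, among them Krt8, Krt18 and Epcam, summed to between 3629 and 4261 TPM (the deposited level per transcript length), and the 9 basal genes to between 146 and 425. In bulk tissue fewer cells of a type and less RNA per cell cannot be told apart. Vehicle replicate 3 stood low for stroma, with 179 TPM summed over 9 fibroblast genes against 714 to 1737 in the other 5 libraries. Agonist replicate 2 carried the most salivary and exocrine gland transcripts, 4836 TPM over 11 genes against 36.1 to 372 elsewhere, and gland ducts of that kind also hold cells with Krt5 and Krt14. The part of either in the results below was not tested.

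Of the 9 genes, 7 had a positive and 2 a negative log2 fold change with agonist, and for none was edgeR's adjusted p under 0.05 (0.99 for each). All 9 were tested, 0 were called, and the share called over all 17396 genes tested was likewise 0%. At an unadjusted p under 0.05 stood 2 members, Lama3 and Col17a1, where 3.09% of all genes did. DESeq2, limma-voom and limma-trend on TPM also called 0 members, and DESeq2 called 0.023% of all genes. At an unadjusted p under 0.05 DESeq2 had 3 members (3.83% of all genes), limma-voom 3 (6.96%) and limma-trend on log2(TPM + 1) 1 (2.16%). In CPM the agonist and vehicle libraries did not overlap for 3 members, Col17a1, Itga6 and Lama3, each higher with agonist, and 3.02% of all genes were higher without overlap. In the deposited TPM only Lama3 of these 3 kept the groups apart. The median log2 fold change over the members was 0.50, and -0.0049 over all genes tested, of which 49.3% were positive. Without agonist replicate 3 that median was 0.12, without vehicle replicate 3 it was 0.17, and without vehicle replicate 2 it was 0.87, while limma-voom gave 0.92.

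**Figure D1:**
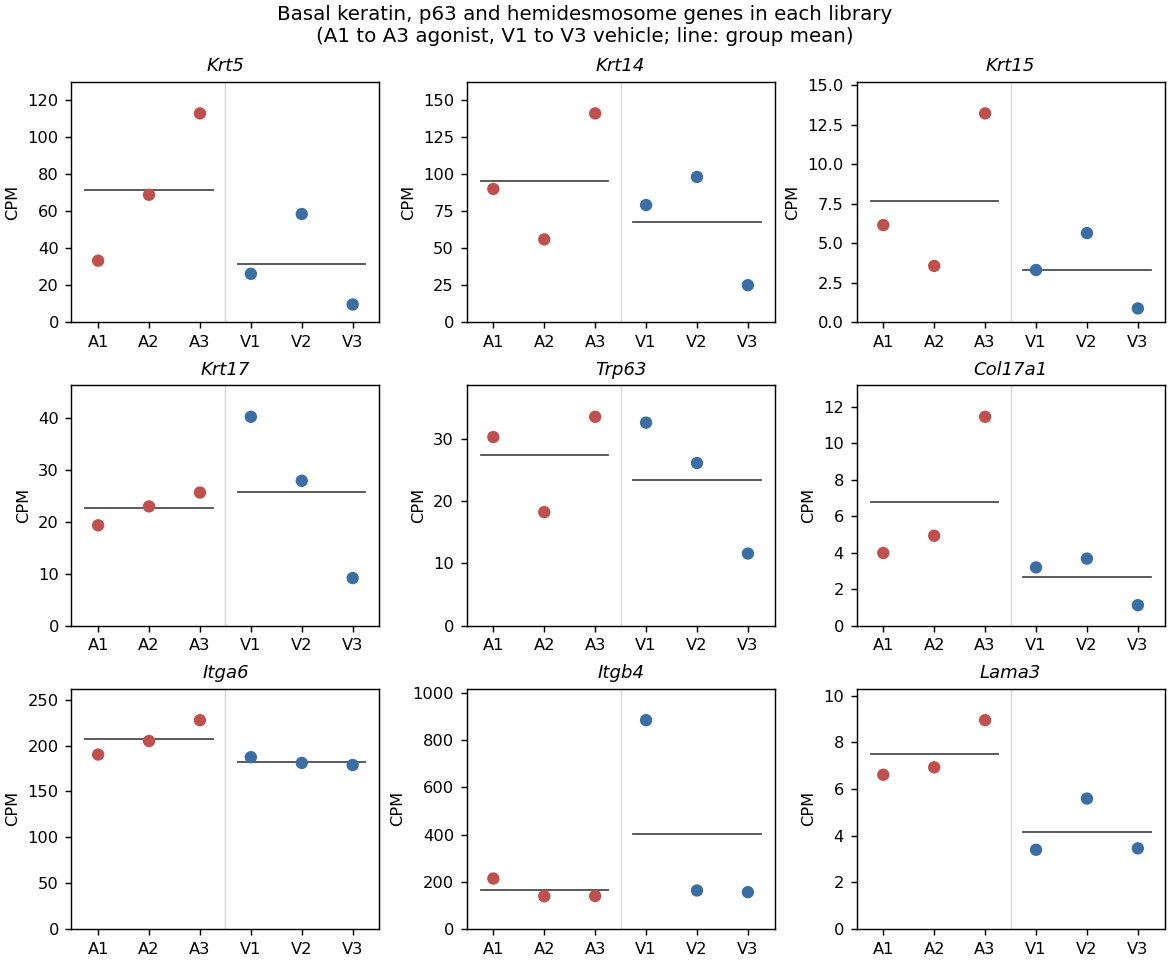
Level of each of the 9 genes in TMM-scaled CPM (vertical axes, from 0, a scale per gene) in agonist replicates 1 to 3 (A1 to A3, red) and vehicle replicates 1 to 3 (V1 to V3, blue), with a line at each group mean. Agonist replicate 3 is the highest library for 7 of the genes and vehicle replicate 3 the lowest for 7, while vehicle replicate 1 stands far above the rest for Itgb4 with 885 CPM.

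Single libraries stood at the ends for most members. In CPM, agonist replicate 3 was the highest of the 6 libraries for 7 of the 9 genes, all but Krt17 and Itgb4, and vehicle replicate 1 was the highest for those 2. Vehicle replicate 3 was the lowest for 7, all but Itgb4 and Lama3. The members' mean deviation from their own 6-library mean, in log2 CPM, was 0.75 in agonist replicate 3 and -1.22 in vehicle replicate 3, and between 0.0078 and 0.18 in the other 4 libraries. In level per length, averaged over the 6 libraries, Itga6 came first (77.4 ± 10.8 TPM, SD, n = 6), followed by Itgb4 (63.4 ± 72.8) and Krt14 (61.6 ± 28.5). The place of Itgb4 rests on vehicle replicate 1 (211 TPM). In the other libraries Itgb4 had 28.4 to 45.6 TPM, below Itga6 in each (58.8 to 90.8). Krt14 was above Itga6 in agonist replicate 3 and vehicle replicate 2 and below it elsewhere. Krt5 (28.3 ± 20.5) and Krt17 (20.5 ± 9.62) came next, with overlapping ranges. Trp63 (6.69 ± 2.57) and Krt15 (4.07 ± 3.10) lay lower and overlapped, and Lama3 (1.13 ± 0.426) and Col17a1 (1.02 ± 0.762) were the lowest and could not be ordered.

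Krt5, the type II keratin of the basal layer (chromosome 15, 101707070 to 101712898, minus strand, GRCm38), had 33.2, 68.8 and 113 CPM in agonist replicates 1 to 3 and 26.1, 58.4 and 9.55 in vehicle replicates 1 to 3. Agonist replicate 3 was high and vehicle replicate 3 low, and agonist replicate 1 lay below vehicle replicate 2, so the groups overlapped. The log2 fold change was 1.19 ± 0.70 (SE, 95% interval -0.50 to 2.89). Without agonist replicate 3 it was 0.70, and without vehicle replicate 2 it was 1.99. Col17a1, whose product anchors the cell surface (chromosome 19, 47646344 to 47692094, minus strand), was about as variable, with 3.98, 4.93 and 11.5 CPM with agonist and 3.19, 3.67 and 1.12 with vehicle. Every agonist library was above every vehicle library in CPM, but in TPM agonist replicate 1 (0.78) lay below vehicle replicate 2 (0.80). Its log2 fold change was 1.35 ± 0.57 (0.022 to 2.68), with an unadjusted p of 0.0471 and an adjusted p of 0.99 by edgeR. Without agonist replicate 3 it was 0.74, and on log2(TPM + 1) it was 0.61. Its unadjusted edgeR p was above 0.05 without agonist replicate 2 or 3 or vehicle replicate 1 or 3, the highest being 0.238 without agonist replicate 3.

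Krt5 and Col17a1 followed each other closely. Their profiles of centred log2 CPM differed by a root mean square of 0.38 over the 6 libraries, and the median difference between Krt5 and the 13872 genes compared was 1.16. Agonist replicate 3 came first and vehicle replicate 3 last for both, as for Krt14, Krt15, Trp63 and Itga6. Both promoters are shown because they are the close pair for which the RefSeq promoter table has a usable entry. The windows searched were the 250 bases before the RefSeq start on GRCm38.p6, minus strand, 5′ to 3′, and capitals mark matches to the motifs searched. Krt5 is at chr15:101712906-101713155. For Col17a1 the last 52 bases of the window lie inside the gene as GENCODE annotates it, and only the bases before the gene are printed, chr19:47692095-47692292.
Krt5: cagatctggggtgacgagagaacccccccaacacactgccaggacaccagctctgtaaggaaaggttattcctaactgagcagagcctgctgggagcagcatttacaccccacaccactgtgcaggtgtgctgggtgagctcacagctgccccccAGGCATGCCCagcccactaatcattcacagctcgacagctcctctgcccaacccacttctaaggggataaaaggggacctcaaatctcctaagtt
Col17a1: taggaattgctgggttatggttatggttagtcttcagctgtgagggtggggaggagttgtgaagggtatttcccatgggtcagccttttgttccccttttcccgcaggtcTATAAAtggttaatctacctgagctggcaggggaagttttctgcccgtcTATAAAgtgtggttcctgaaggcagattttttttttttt

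The motifs searched on both strands were TATAAA (the TATA box), GGGCGG (Sp1), TGANTCA (AP-1) and the p53-family half-site with a CATG core, the family to which p63 belongs. The Krt5 window held 1 half-site, which begins 95 bases before the start, and none of the other motifs. A half-site of this form lies in 1.63% of 32851 RefSeq promoter windows of the same length. The Col17a1 window held TATAAA at 140 and 91 bases before the start, a motif present in 12.4% of the windows, and none of the others. GGGCGG is in 32.7% and TGANTCA in 6.75% of the windows. A match is a run of letters, not a shown site of binding. Of the 9 genes, 3 matched the promoter table, and 2 were used. The windows counted leave out chromosome 18, on which Lama3 lies.

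The type I keratins differed among themselves. Krt14, the usual partner of Krt5 (chromosome 11, 100203162 to 100207548, minus strand), had 89.9, 55.9 and 141 CPM with agonist and 79.0, 98.0 and 25.0 with vehicle. Agonist replicate 2 lay below 2 vehicle libraries, and the log2 fold change was 0.50 ± 0.55 (-0.81 to 1.82), or 0.11 without either agonist replicate 3 or vehicle replicate 3. Krt15, a keratin of basal and progenitor cells (chromosome 11, 100131758 to 100135928, minus strand), had 6.15, 3.56 and 13.2 CPM with agonist and 3.31, 5.64 and 0.87 with vehicle. Its range in CPM was the widest of the members at 15.2-fold, while in TPM it was 11.6-fold, as for Krt5. The groups overlapped, and the log2 fold change was 1.22 ± 0.73 (-0.49 to 2.93), falling to 0.57 without agonist replicate 3. Krt17 is a keratin of basal cells and of stressed or injured epithelium (chromosome 11, 100256217 to 100261029, minus strand). Like Krt14 and Krt15 it was lowest in vehicle replicate 3, but its highest library was vehicle replicate 1, not agonist replicate 3. It had 19.3, 23.0 and 25.6 CPM with agonist and 40.2, 27.9 and 9.15 with vehicle, so that the agonist libraries lay inside the vehicle range. Its log2 fold change was -0.19 ± 0.48 (-1.34 to 0.97), and 0.29 without vehicle replicate 1.

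Counts of closely related keratins can be divided between copies. Windows of 100 bases from Krt14 transcripts matched Krt16 transcripts in 2.78% of cases, and those of Krt5 matched Krt6a, Gm5478 or Gm44323, an embedded microRNA gene, in 3.81%, while Krt15 and Krt17 windows matched no other gene in GENCODE M21. Krt16 had at most 3.24 CPM (vehicle replicate 1) and Krt6a at most 0.461, against at least 25.0 CPM of Krt14 and 9.55 of Krt5 in any library.

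Trp63 (chromosome 16, 25683763 to 25892102, plus strand), the regulator, varied less than the keratins. It had 30.3, 18.2 and 33.5 CPM with agonist and 32.6, 26.1 and 11.6 with vehicle, and the groups overlapped almost fully. The log2 fold change was 0.22 ± 0.40 (-0.72 to 1.17), and -0.10 without vehicle replicate 3. The gene tables do not separate the full-length from the amino-terminally truncated forms of p63. The closest member in pattern was Krt14, at a root mean square difference of 0.33, followed by Krt17 at 0.37, while Krt5 was at 0.92. Of all genes with a mean of at least 1 TPM, Plek2, Cyp4v3, Fhod3, St3gal2 and Fcgr1 were nearest to Trp63, at 0.12 to 0.20 (median over genes 0.61). Nearest to Krt14 were Mfge8, Igsf10, Prtn3, AI662270 and Vcan (0.12 to 0.20, median 0.83), and nearest to Krt5 were Ceacam10, Lgals7, Gfra1, Slc39a4 and Cyp2f2 (0.24 to 0.37). Those nearest to Col17a1 were H19, Ceacam10, Lgals7, Krt5 and Myl9 (0.33 to 0.40, median 1.0). Lgals7 encodes a galectin of stratified epithelium and Myl9 a myosin light chain of contractile cells. The cell types of the other genes named were not read, so these lists name no cell type.

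**Figure D2:**
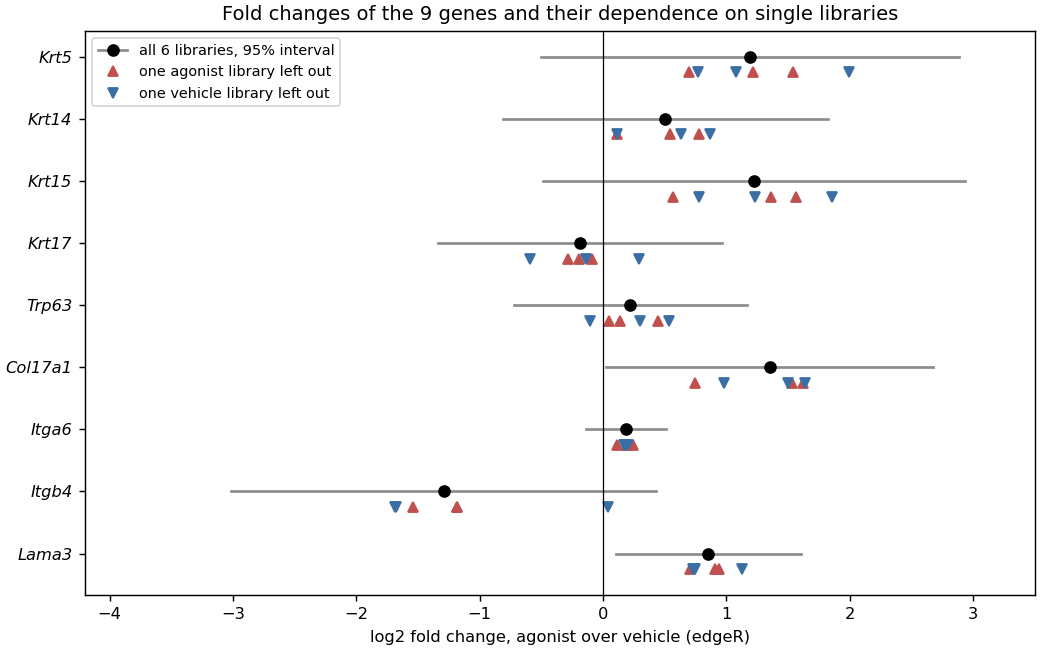
Log2 fold change of each gene, agonist over vehicle, by edgeR (horizontal axis), with all 6 libraries (black points, grey bars the 95% interval) and with 1 library left out (triangles, red up for agonist and blue down for vehicle). The intervals of Col17a1 (0.022 to 2.68) and Lama3 (0.11 to 1.60) lie just above 0, and the value of Itgb4 moves from -1.29 to 0.039 when vehicle replicate 1 is left out.

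Among the anchoring genes, Lama3, the laminin alpha chain that integrin alpha6 beta4 binds (chromosome 18, 12333819 to 12583013, plus strand), had the smallest unadjusted p of the members. It had 6.61, 6.93 and 8.95 CPM with agonist and 3.40, 5.59 and 3.46 with vehicle, with every agonist library above every vehicle library. The log2 fold change was 0.85 ± 0.32 (0.11 to 1.60, unadjusted p = 0.0303, edgeR adjusted p = 0.99). With libraries left out it ran from 0.71 to 1.13, and on log2(TPM + 1) it was 0.48. Its unadjusted edgeR p was above 0.05 without agonist replicate 2 or 3 or vehicle replicate 1 or 3, at most 0.123. Without vehicle replicate 3 the 2 members under 0.05 were Krt17 (-0.59) and Itgb4 (-1.69), both with lower means in the agonist libraries. In that fit 576 of all 17846 genes were under 0.05, 434 of them lower with agonist, and 0 were called. Both values include vehicle replicate 1, the highest library for both genes. Itga6, the integrin alpha6 chain (chromosome 2, 71745616 to 71858416, plus strand), was the steadiest member, at 190.3, 205 and 228 CPM with agonist and 187, 181 and 179 with vehicle. The agonist libraries were all higher in CPM, but in TPM agonist replicate 1 (78.0) lay below vehicle replicate 1 (79.5), and the log2 fold change was 0.19 ± 0.14 (-0.14 to 0.52).

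Itgb4, the integrin beta4 chain, which pairs only with alpha6 and links the receptor to keratin filaments, was set apart by a single library. It had 214, 139 and 139 CPM with agonist and 885, 163 and 156 with vehicle. Vehicle replicate 1 lay 2.50 above the median of the other 5 libraries in log2 CPM, and the other 2 vehicle libraries lay inside the agonist range. The log2 fold change was -1.29 ± 0.72 (-3.01 to 0.43), and 0.039 without vehicle replicate 1. Itga6 did not share the excess: the TPM ratio of Itgb4 to Itga6 was 2.66 in vehicle replicate 1 and between 0.313 and 0.585 in the other 5 libraries.

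The excess was shared by the genes beside Itgb4 on chromosome 11 (115974709 to 116008412, plus strand). Of the 68 tested genes within 1 Mb of it, 47 (69.1%) were at least 2-fold above the median of the other 5 libraries in vehicle replicate 1, where 6.06% of 17366 genes were. An unbroken run of 32 tested genes, from Nup85 (115564434) to Foxj1 (116335399), lay above that level, with a median log2 deviation of 2.03. The gene after Foxj1, Rnf157, was at 0.0063. The gene before Nup85, Sumo2, was at 0.99, just under 2-fold, and the excess went on beyond it: 16 of the 20 neighbours before the run, and 0 of the 17 after it, were at least 2-fold higher. The flanking tested genes show the same libraries. Sap30bp, before Itgb4, had 302 CPM in vehicle replicate 1 and between 58.2 and 131 in the others, and Galk1, the galactokinase gene after it, had 187 against 45.3 to 91.9. Grb2, the gene of an adaptor in receptor tyrosine kinase signalling, which lies 0.331 Mb before Itgb4 and was named after its values were seen, had 291 CPM in vehicle replicate 1, 227 in agonist replicate 1 and between 71.3 and 89.1 in the other 4.

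Agonist replicate 1 also stood out here, but over a stretch that only partly coincided. In it 25 of the 68 neighbours (36.8%) were at least 2-fold above the other libraries' median, against 4.34% of all genes. Of these 25 neighbours, 4 lay before the run, 10 in it and 11 after it. The median over the run of 32 genes was 0.80 and that of the 17 neighbours after it 1.20, while Itgb4 itself was at 0.45. Recql5, also named after its values were seen, was higher in agonist replicate 1 (321 CPM) than in vehicle replicate 1 (115). The 5 genes nearest to Itgb4 in pattern, out of the 13872 compared, were Cdr2l, Smim5, Tmem104, Hs3st3b1 and Hid1 (0.10 to 0.21, median 0.99), and all but Hs3st3b1 lie within 1 Mb of it. In the remaining 4 libraries 0 to 3 of the 68 neighbours reached that level. For the other 8 members the neighbours within 1 Mb did not depart in this way, with a median log2 deviation between -0.53 and 0.28 in every library. Gene copy number was not measured, and its part was not tested.

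**Figure D3:**
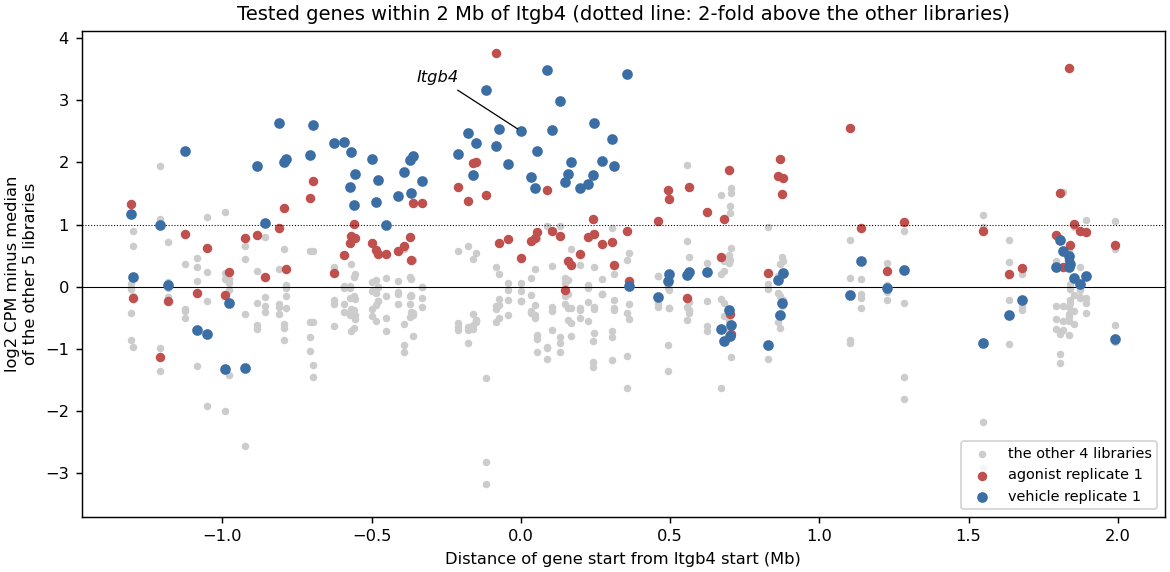
Log2 CPM of each tested gene minus the median of the other 5 libraries (vertical axis) by the distance of its start from the Itgb4 start in Mb (horizontal axis), for vehicle replicate 1 (blue), agonist replicate 1 (red) and the other 4 libraries (grey). In vehicle replicate 1 the genes around Itgb4 stand above the dotted line that marks 2-fold and the first gene past Foxj1, Rnf157, is at 0.0063.

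Ratios between partner genes were compared over the 6 libraries by exact two-sided permutation of the labels, for which 0.1 is the smallest p that 3 against 3 allows. Krt14 exceeded Krt5 in 6 of 6 libraries, by a TPM ratio of 3.73, 1.13 and 1.70 with agonist and 4.26, 2.30 and 3.62 with vehicle. The ratio was lowest in agonist replicate 2, the library with the most salivary transcripts. The log2 ratio was lower with agonist by a mean of -0.77 (exact permutation p = 0.3, adjusted over 5 ratios 0.375), and by -0.38 to -1.25 with 1 library left out. Trp63 to Krt5 differed by -1.11 (exact p = 0.2, adjusted 0.375), with 0.436, 0.120 and 0.139 with agonist and 0.626, 0.208 and 0.570 with vehicle, and by -0.77 to -1.70 with 1 library left out. Lama3 to Lamb3, the laminin beta chain that joins it, was the only one of the 5 ratios without overlap. It was 0.106, 0.0609 and 0.105 with agonist and 0.0258, 0.0435 and 0.0478 with vehicle, a log2 difference of 1.22 at the smallest exact p the design allows, 0.1 (adjusted 0.375). Itgb4 to Itga6 differed by -1.07 (exact p = 0.3, adjusted 0.375), and by -0.25 without vehicle replicate 1. Krt14 to Krt8, a basal against a luminal keratin, ranged from 0.0292 in vehicle replicate 3 to 0.171 in agonist replicate 3 and differed by 0.84 (exact p = 0.4, adjusted 0.4), or 0.37 to 1.31 with 1 library left out.

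**Figure D4:**
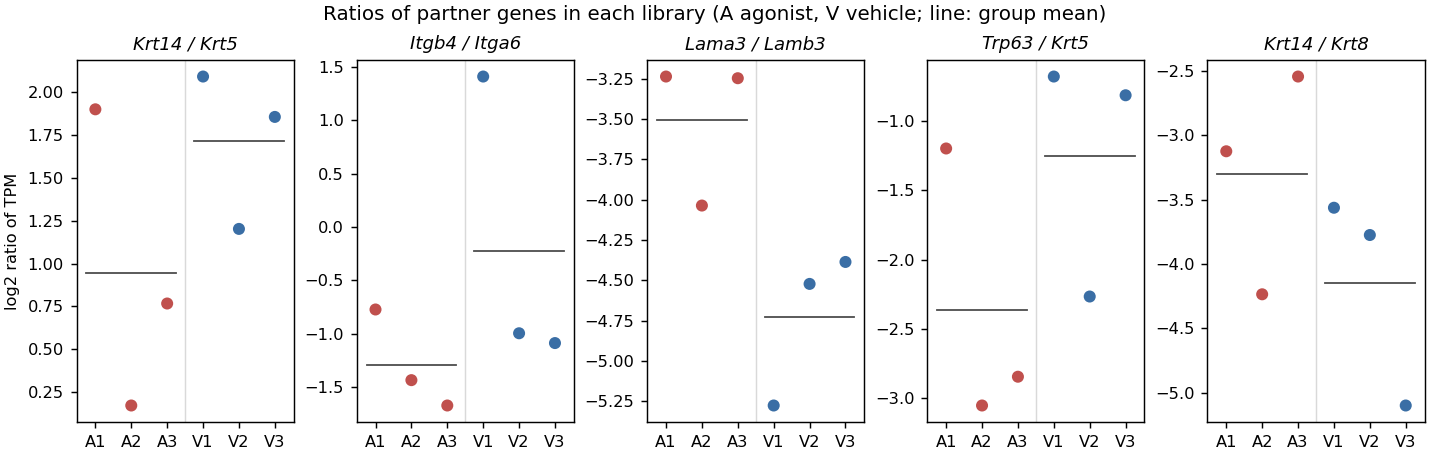
Log2 ratio of TPM (vertical axes, a scale per panel) for 5 gene pairs in each agonist (A1 to A3, red) and vehicle (V1 to V3, blue) library, with a line at each group mean. Lama3 over Lamb3 is the only pair whose groups do not overlap, and Itgb4 over Itga6 shows vehicle replicate 1 far above the others at 1.41.

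The other parts of the anchoring complex did not follow the members. Of 8 listed partners all were tested, 0 were called in either direction, and log2 fold changes were positive for 3 and negative for 5, with a median of -0.27. Lamb3, the beta chain that joins Lama3, had overlapping groups (-0.36 ± 0.30). The cytoplasmic linkers that hold keratin to the hemidesmosome, Dst (-0.27 ± 0.31) and Plec (-0.74 ± 0.21), both had lower means with agonist. Plec, which encodes plectin, had 100.3, 122 and 106 CPM with agonist and 236, 143 and 166 with vehicle, without overlap (unadjusted p = 0.00874, edgeR adjusted p = 0.99), and 4.22% of all genes were lower without overlap. In TPM its groups overlapped, with 9.52 in agonist replicate 2 and 8.99 in vehicle replicate 2. Without vehicle replicate 1 its log2 fold change was -0.50. The tetraspanin Cd151 (0.043 ± 0.25), the integrin chains Itga3 (-0.27 ± 0.15) and Itgb1 (0.085 ± 0.16), and the anchoring fibril collagen Col7a1 (-0.32 ± 0.55) were also read. Itga3 was lower in all 3 agonist libraries in CPM but not in TPM, where vehicle replicate 2 (9.26) was the lowest.

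Of 9 partners and reported targets of p63, 6 were positive and 3 negative (median 0.085) and 0 were called. The 3 most abundant, Perp (0.085 ± 0.24), Sfn (-0.66 ± 0.35) and Cldn1 (-0.025 ± 0.26), had overlapping groups. Of 10 further basal markers and regulators 9 were tested, with 6 positive, 3 negative and 0 called (median 0.48). Both lists had their highest mean deviation in agonist replicate 3 (0.26 and 0.69). Their lowest was in vehicle replicate 3 (-0.29 and -0.78), as for the members. Summed TPM did not keep this order. The p63 list had 208 TPM in agonist replicate 3, 282 in vehicle replicate 3 and its lowest, 207, in vehicle replicate 2. Its abundant Perp had 135 CPM in agonist replicate 3 and 213 in vehicle replicate 3. The other list was lowest in agonist replicate 1 (27.9 TPM, against 31.4 in vehicle replicate 3). By mean deviation the 9 myoepithelial contractile genes were also highest in agonist replicate 3 (1.70) and lowest in vehicle replicate 3 (-1.13). Of these, 8 were positive and 0 called, and the median was 1.29. Acta2, smooth muscle actin, had 51.7, 28.1 and 162 CPM with agonist and 22.8, 33.3 and 8.23 with vehicle (1.91 ± 0.77, and 0.90 without agonist replicate 3). The more abundant Cald1 had 300, 264 and 209 CPM with agonist and 251, 224 and 173 with vehicle (0.26 ± 0.20). Tagln, also more abundant, had 69.2, 32.5 and 68.7 CPM with agonist and 25.0, 55.2 and 14.3 with vehicle (0.85 ± 0.53). In CPM both were highest in agonist replicate 1 and lowest in vehicle replicate 3.

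Markers of other tissues that hold basal keratins were also read. Of 12 suprabasal and cornified skin genes 4 passed the filter, and the list summed to 34.8 to 44.3 TPM with agonist and 29.4 to 46.8 with vehicle. Its tested genes had a mean deviation of 0.41 in agonist replicate 3, 0.46 in vehicle replicate 2 and -0.52 in vehicle replicate 3, so their lowest library was also that of the members. Hair follicle keratins summed to at most 1.90 TPM in any library (2 of the 7 found were tested, and Krt35 was at 0 throughout). Pericyte and vascular smooth muscle genes ranged from 55.6 to 66.2 TPM with agonist and 56.6 to 61.1 with vehicle, with a mean deviation of -0.013 in agonist replicate 3 and the lowest, -0.45, in vehicle replicate 3. Of the salivary list, Muc19 and Smgc were at 0 in every library. Pip, the prolactin-induced protein, had 1000.3 CPM in agonist replicate 2 (3771 TPM) and at most 9.69 CPM elsewhere. Prol1 was highest in vehicle replicate 3 (282 CPM), with 204 in agonist replicate 2 and at most 4.66 elsewhere. Dcpp2 had 104 CPM in agonist replicate 2 and 27.5 in agonist replicate 3, against 0.596 to 7.32 in the others. Vehicle replicate 3, lowest for 7 members, was also lowest for fibroblast, leukocyte (108 TPM against 259 to 519), endothelial (12.6 against 17.9 to 27.2), adipocyte (31.6 against 70.1 to 599) and skeletal muscle genes (344 against 373 to 566), whereas its luminal sum of 4261 TPM was the highest. By mean deviation the skeletal muscle genes were lowest in vehicle replicate 1 (-0.31), with -0.26 in vehicle replicate 3. The luminal genes were highest by mean deviation in vehicle replicate 2 (0.18), with 0.16 in vehicle replicate 3. Schwann cell genes summed to 203 to 356 TPM with agonist and 280 to 563 with vehicle. The part of these in the members' levels was not tested.

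**Figure D5:**
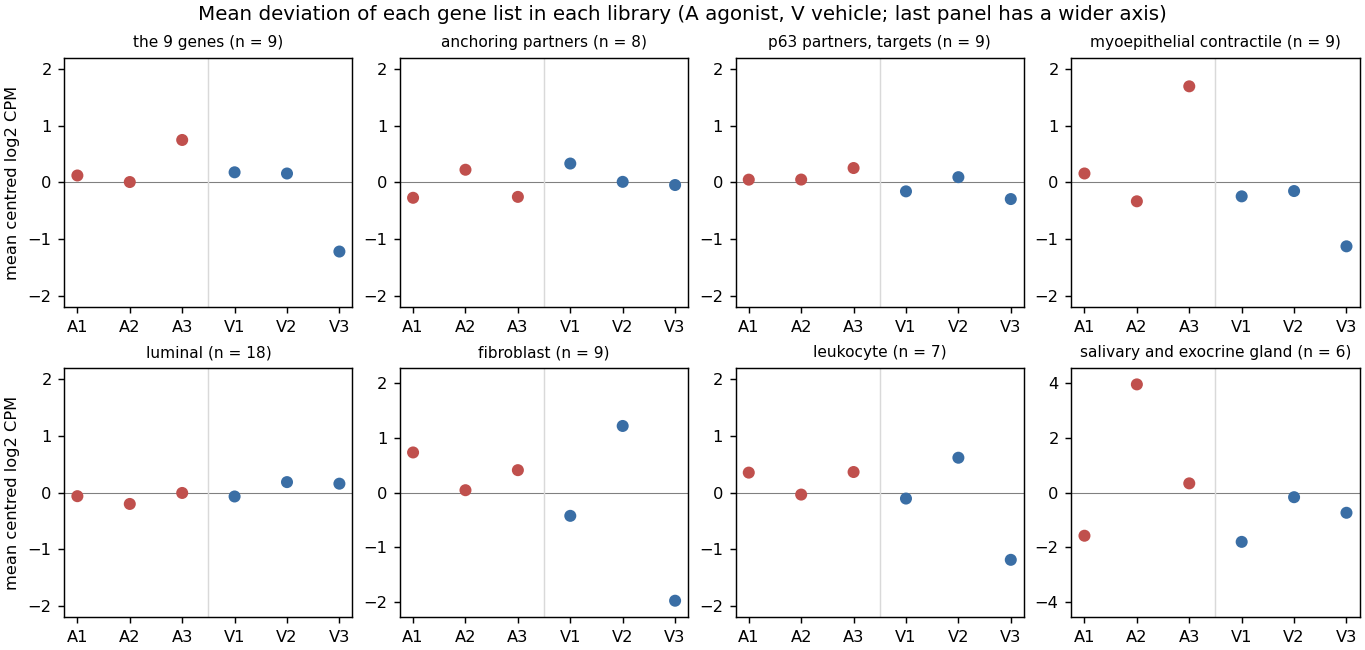
Mean over each list of log2 CPM centred on every gene's own mean (vertical axes) in agonist (A1 to A3, red) and vehicle (V1 to V3, blue) libraries, with n the tested genes. The 9 genes, the contractile list and the p63 partners and targets are highest in agonist replicate 3 (0.75, 1.70 and 0.26). They are lowest in vehicle replicate 3 (-1.22, -1.13 and -0.29), while the anchoring partners stay between -0.27 and 0.33. The summed TPM of the p63 list does not keep this order (208 in agonist replicate 3, 282 in vehicle replicate 3).

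The weighted mean transcript length that RSEM gives per gene differed little between groups. For Krt15 it was 1390 bases in vehicle replicate 3, on 35 expected counts, and 1700 in every other library. For Trp63 it ran from 4066 bases in vehicle replicate 1 to 4470 in agonist replicate 2, and for Lama3, whose annotated transcripts measure 5551 and 10548 bases, from 5602 to 5959, near the shorter form in all 6 libraries. Col17a1 had 5588 bases, its longest annotated transcript, in agonist replicate 1 and vehicle replicates 1 and 3, and 4450 to 5218 in the other 3. At 45 to 480 expected counts per library these estimates for Col17a1 rest on few reads.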

How the data were processed

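The members and gene lists were chosen with earlier results of these data known. Per the file headers, the authors deposited 1 RSEM gene table per library, with expected counts (estimated, not whole in 10.1% to 10.5% of rows), TPM and a weighted transcript length. Tools named in the submitters' processing notes include STAR 2.7.9a and RSEM 1.3.1, beside FastQC 0.11.9, cutadapt 3.5 and the build GRCm38. The strand setting is not given in the sources used here, so reads of antisense partners cannot be told apart. Positions are GENCODE M21.

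Expected counts were rounded and tested with edgeR 4.0.16 (R 4.3.3): TMM, filterByExpr (minimum count 10, total 15), robust quasi-likelihood F test of treatment without covariates, Benjamini-Hochberg over 17396 genes, threshold 0.05. The script was tested on simulated data. SE is the log2 fold change over the square root of F. SDs are over libraries. Profiles use log2 CPM with a prior count of 2. No batch is labelled. Alternatives were other factors, filters and tools (DESeq2 1.42.0, limma 3.58.1), log2(TPM + 1) and log2(TPM + 0.1), the replicate block and each library left out. All 9 members are named, the anchoring partners except 1 that is not reported here, from other lists the 3 most abundant tested genes may be, and the 5 genes nearest in pattern to Krt5, Krt14, Trp63, Col17a1 and Itgb4. Other genes were chosen after their values were seen. The floor of 3 counts covers counting error only, since PCR copies were not told apart.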

Additional observations from a re-analysis of the deposited data

How the results depend on the processing

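Of the 9 members, 6 had a positive log2 fold change in all 15 alternative fits, and none was called in any. Krt17 turned positive with the replicate block (0.024), limma-voom (0.10), limma-trend on log2(TPM + 1) (0.067) and on log2(TPM + 0.1) (0.085). DESeq2 called 4 of all genes where edgeR called 0, and no member was among them. With each library left out in turn, log2 fold changes ran from 0.70 to 1.99 for Krt5, 0.11 to 0.87 for Krt14, 0.57 to 1.86 for Krt15, -0.59 to 0.29 for Krt17, -0.10 to 0.54 for Trp63, 0.74 to 1.64 for Col17a1, 0.12 to 0.25 for Itga6, -1.69 to 0.039 for Itgb4, 0.71 to 1.13 for Lama3, -0.56 to 0.0036 for Dst, -0.095 to 0.33 for Cd151, -0.0025 to 0.20 for Itgb1, -1.03 to -0.063 for Col7a1, -0.60 to -0.18 for Lamb3 and -0.34 to -0.16 for Itga3. The members' median ran from 0.12 to 0.87 with a library left out and from 0.48 to 0.92 over the other fits. Limma-voom gave 1.82 for Krt5, 0.92 for Krt14, 1.86 for Krt15 and 0.41 for Trp63. Limma-trend on log2(TPM + 1) gave 0.61 for Col17a1, 0.48 for Lama3 and -0.80 for Itgb4, and the replicate block gave -0.80 for Itgb4. The unadjusted p of Col17a1 was 0.13 with the replicate block and 0.0502 with the strict filter. The median was 0.68 without Itgb4, an alternative chosen after seeing the data. The labels give same-numbered libraries nothing in common but the number. Across genes their deviations correlated at 0.17, 0.038 and 0.063, and those of differently numbered libraries at -0.11 to 0.055. Whether the numbers mark pairs is not known, and the replicate block left 0 genes called. The low counts of Col17a1 (45 to 480 per library), Krt15 (35 to 554) and Lama3 (139 to 375) limit their precision.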
